A study of Mus musculus with 8 samples.

Results

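Cholesterol is built by a chain of enzymes whose genes are switched on together by the transcription factor SREBP2. The genes described here are 26 genes of that chain and of its control, taken as a list of symbols by what their products do, out of 21968 gene symbols measured. All 26 were found, and all 26 were among the 14404 genes that passed a filter on low counts and were tested. RNA was sequenced in bulk from livers of Lgr5-LacZ transgenic mice on a mixed C57BL/6 and CBA background, 6 days after 1 intraperitoneal dose of carbon tetrachloride (CCl4, 1 µl per g of body weight in rapeseed oil), a toxin that injures hepatocytes. The 4 groups were F4/80high cells with β-galactosidase activity (b-gal+), F4/80high cells without it (b-gal-), EpCAM-positive cells, and hepatocytes. F4/80 is a surface antigen of macrophages, and EpCAM is one of bile duct epithelium. The b-gal gates were set with FDG, a substrate that turns fluorescent when β-galactosidase cuts it, and hepatocytes were spun down at low speed. Each group has 2 libraries, and each library holds the pooled cells of 2 mice, 10 to 12 weeks old by the sample labels and from 7 weeks old by the series text. All groups carried the transgene and had received CCl4, so no uninjured liver is compared here, and the labels do not say whether libraries of different groups share mice.

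Cholesterol synthesis starts from acetyl-CoA, runs through mevalonate and the branched isoprenoid intermediates to squalene, and then through lanosterol to cholesterol. SREBP2 sits in the membrane of the endoplasmic reticulum bound to SCAP. When sterols are scarce, SCAP carries it to the Golgi, where the proteases encoded by Mbtps1 and Mbtps2 release its active part. When sterols are plentiful, the INSIG proteins hold the pair back. The liver is a main site of cholesterol synthesis, and its hepatocytes also export cholesterol and turn it into bile acids, whereas macrophages take up much of theirs from cells and lipoproteins they engulf.

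SREBP proteins bind sterol regulatory elements near the start of their target genes, often beside a CCAAT box bound by NF-Y. RefSeq promoter windows (GRCm38.p6, 250 bases before to 50 after a start) matched 22 of the 26 genes; Fdps, Fdft1, Sqle and Stard4 had no window. The element was searched as TCACNCCAC and the box as CCAAT, each on both strands, and ATTGG is the box read on the other strand. TCACNCCAC occurred in the windows of 1 of 22 genes, Hmgcs1, against 1.44% of 27025 genes in the table. CCAAT occurred in 18 of 22 genes (81.8%), against 41.1% of all genes. A match describes letters only, not a site in use. The 4 windows shown are those of Hmgcs1, Sc5d, Hsd17b7 and Ggps1. Hmgcs1 holds the element, and Sc5d is the gene of the list with the widest gap between hepatocytes and the other cells. Hsd17b7 differed most of the list between the b-gal gates, and Ggps1 ran against most of the list. Capitals mark the motifs, and each window reads 5′ to 3′ on the strand of its gene.
Hmgcs1 (chr13:119690101-119690400, plus strand): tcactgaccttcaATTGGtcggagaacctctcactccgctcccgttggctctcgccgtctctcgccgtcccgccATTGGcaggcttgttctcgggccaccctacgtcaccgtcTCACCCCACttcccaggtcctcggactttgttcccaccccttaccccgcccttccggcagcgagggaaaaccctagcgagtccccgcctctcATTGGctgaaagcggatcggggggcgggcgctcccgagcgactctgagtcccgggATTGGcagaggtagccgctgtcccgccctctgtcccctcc
Sc5d (chr9:42264251-42264550, minus strand): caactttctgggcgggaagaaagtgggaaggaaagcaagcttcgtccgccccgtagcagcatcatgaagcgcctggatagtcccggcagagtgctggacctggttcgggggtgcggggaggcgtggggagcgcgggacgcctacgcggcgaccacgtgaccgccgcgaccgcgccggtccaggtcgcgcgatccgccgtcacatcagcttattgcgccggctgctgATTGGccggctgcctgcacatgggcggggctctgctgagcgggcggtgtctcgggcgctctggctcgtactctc
Hsd17b7 (chr1:169969156-169969455, minus strand): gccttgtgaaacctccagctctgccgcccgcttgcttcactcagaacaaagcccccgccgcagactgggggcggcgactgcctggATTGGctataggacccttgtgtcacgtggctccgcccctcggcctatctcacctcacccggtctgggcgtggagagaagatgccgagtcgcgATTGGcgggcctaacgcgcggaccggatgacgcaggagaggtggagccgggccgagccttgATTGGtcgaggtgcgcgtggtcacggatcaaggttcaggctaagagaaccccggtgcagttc
Ggps1 (chr13:14063439-14063738, minus strand): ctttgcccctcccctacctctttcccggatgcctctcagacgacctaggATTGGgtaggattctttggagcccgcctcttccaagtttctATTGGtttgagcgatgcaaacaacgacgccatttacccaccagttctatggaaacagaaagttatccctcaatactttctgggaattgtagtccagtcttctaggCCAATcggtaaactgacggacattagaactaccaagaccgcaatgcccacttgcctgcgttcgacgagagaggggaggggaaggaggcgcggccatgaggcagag
The element of Hmgcs1 starts 137 bases upstream of the start. CCAAT boxes were found at 4 places in the window of Hmgcs1, at 3 in that of Hsd17b7, at 3 in that of Ggps1 and at 1 in that of Sc5d. Whether the number of boxes goes with the level of a gene was not tested.

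The libraries held 16948568 to 24549242 reads on named genes. Levels are counts per 1000000 reads (CPM) after TMM scaling, a correction for differences in RNA composition, and differences are log2 with their standard error (SE). The 10 hepatocyte markers summed to 193 to 5343 CPM in the 6 libraries of other cells, the highest being EpCAM-positive replicate 2, and to 196997 and 280730 CPM in hepatocytes. Ass1 had no reads in those 6 libraries, but only 28 and 30 reads in hepatocytes. Macrophage markers summed to 35168 and 31588 CPM in b-gal+ cells, against 3339 and 2278 CPM in b-gal- cells. Endothelial markers summed to 4064 and 3003 CPM in b-gal+ cells, against 20546 and 24069 CPM in b-gal- cells. The b-gal- gate held more RNA of endothelial markers than of macrophage markers although it was sorted as F4/80high. EpCAM-positive cells had 2197 and 7251 CPM of bile duct markers beside 8743 and 7431 CPM of endothelial ones. Spp1, which is listed among the bile duct markers, had 655 and 53.5 CPM in b-gal+ cells and 1263 and 78.6 CPM in b-gal- cells. The other 9 markers of that list summed to 4.25 and 3.66 CPM in b-gal+ and 10.4 and 10.1 CPM in b-gal- cells. In EpCAM-positive cells these 9 markers summed to 360 and 1566 CPM, and in hepatocytes to 270 and 296 CPM. Lymphocyte markers summed to 332 and 88.3 CPM in EpCAM-positive cells, and to 17.0 to 48.6 CPM in the gates. In bulk RNA, fewer cells of a type and less RNA per cell cannot be told apart. Replicates of 1 group correlated over genes with Spearman's rho of 0.926 in EpCAM-positive cells and 0.980 to 0.985 in the other groups, where genes are not independent replicates.

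Nearly the whole list was lower in the sorted non-hepatocyte groups than in hepatocytes. With limma over all genes and Benjamini-Hochberg adjustment (adjusted p under 0.05), 24 of 26 genes were lower and 2 higher in b-gal+ cells, while 29.6% of all genes tested were lower and 29.5% higher. In b-gal- cells 23 were lower and 2 higher, beside 29.7% and 33.5% of all genes. In EpCAM-positive cells 22 were lower and 1 higher, beside 29.1% and 33.5% of all genes. The median difference of the 26 genes was -3.47 in b-gal+, -3.72 in b-gal- and -2.65 in EpCAM-positive cells, while the median over all genes tested was 0.10, 0.17 and 0.14. The libraries of both sides did not overlap for 26, 26 and 24 genes in these comparisons. Over all genes tested the share without overlap was 82.4%, 86.2% and 80.8%, and the share called in either direction was 59.2%, 63.2% and 62.5%. All 3 comparisons use the same pair of hepatocyte libraries, so their results are not independent of each other. Handling differed too, since hepatocytes were pelleted and the other cells were stained and sorted, and handling and cell type cannot be told apart.

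Scaling sets the height of these differences. TMM factors were 0.552 and 0.527 in the hepatocyte libraries, where the 10 most abundant genes took 19.9% and 23.2% of reads, and 1.06 to 1.49 in the others. With the authors' own scaling the median of all genes moved by 0.77 in b-gal+, 0.96 in b-gal- and 1.17 in EpCAM-positive cells. The share of calls that were higher than in hepatocytes became 76.7%, 79.7% and 84.9%, against 49.9%, 53.0% and 53.5% under TMM. Still, 21, 21 and 18 of the 26 genes were called lower under that scaling, and 2, 4 and 4 were called higher, with a median of -2.43, -2.51 and -1.29 over the list.

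**Figure D1:**
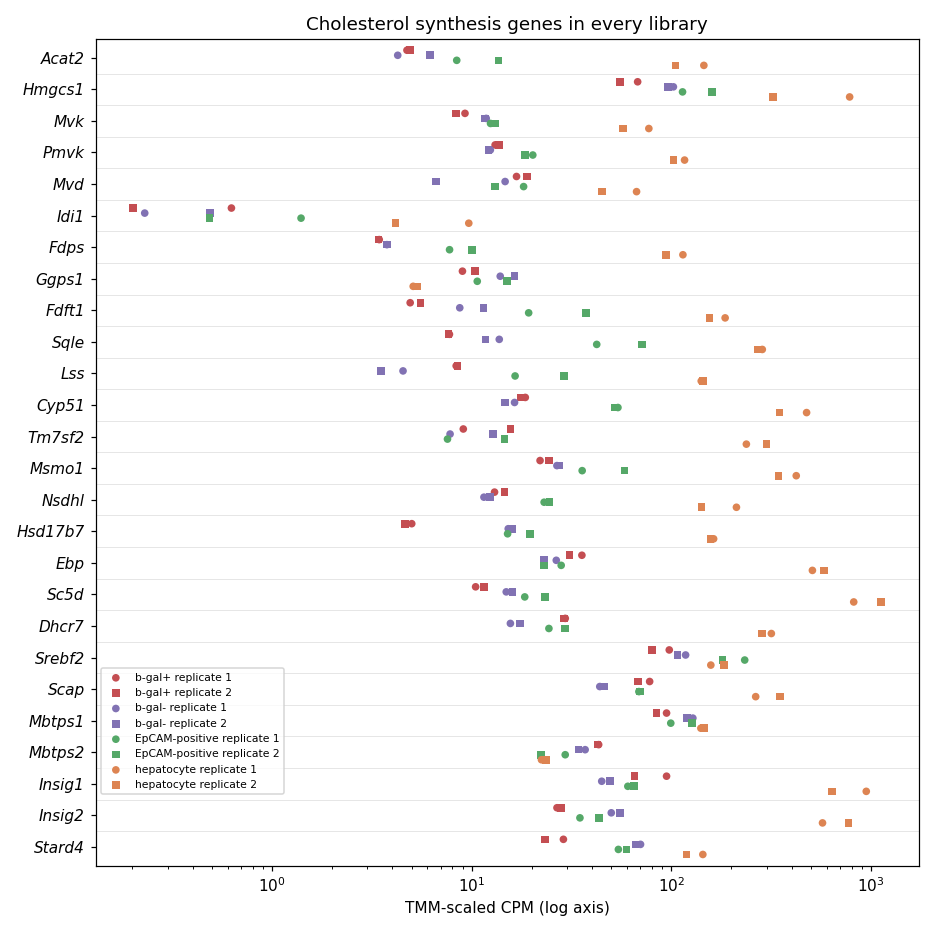
TMM-scaled CPM (log axis) of the 26 genes, 1 row a gene in pathway order, in the 8 libraries; circles are replicate 1 and squares replicate 2. The hepatocyte points lie to the right of the others in most rows, while Ggps1 and Mbtps2 are exceptions and Srebf2 overlaps with EpCAM-positive cells.

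The first step genes were lower outside hepatocytes in all 3 groups. Hmgcs1 makes HMG-CoA, a precursor of mevalonate. It had 67.8 and 55.3 CPM for b-gal+, 102 and 96.3 for b-gal-, 114 and 160.1 for EpCAM-positive, and 782 and 323 for hepatocyte libraries. The groups did not overlap, although the hepatocyte replicates differed by more than any other pair of this gene. Hmgcs1 fell by 3.03 (SE 0.40, limma adjusted p = 5.97e-04) in b-gal+ cells, by 2.33 (0.00193) in b-gal- cells and by 1.89 (0.00538) in EpCAM-positive cells, the last without a call under the authors' scaling. Acat2, the cytosolic thiolase that joins acetyl-CoA units, had 4.74 and 4.91 CPM for b-gal+, 4.26 and 6.16 for b-gal-, 8.42 and 13.6 for EpCAM-positive, and 146 and 105 for hepatocyte libraries. It was 23.3-fold lower in b-gal+, 22.0-fold in b-gal- and 11.1-fold in EpCAM-positive cells than in hepatocytes, but 39.1% of its 50-base stretches also occur in Acat3, so its reads are uncertain. Of the stretches of Hmgcs1, 11.6% occur in other genes.

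The kinases and the decarboxylase that turn mevalonate into isopentenyl diphosphate were also lower outside hepatocytes. Mvk, mevalonate kinase, had 9.26 and 8.33 CPM for b-gal+, 11.8 and 11.7 for b-gal-, 12.4 and 13.2 for EpCAM-positive, and 77.2 and 57.2 for hepatocyte libraries. Pmvk, the next kinase, had 13.1 and 13.7 CPM for b-gal+, 12.4 and 12.1 for b-gal-, 20.2 and 18.5 for EpCAM-positive, and 117 and 102 for hepatocyte libraries. Mvd, the decarboxylase, had 16.8 and 18.9 CPM for b-gal+, 14.7 and 6.60 for b-gal-, 18.2 and 13.0 for EpCAM-positive, and 67.0 and 45.0 for hepatocyte libraries. For each of the 3 genes the hepatocyte libraries stood above all others, and the other groups overlapped or lay close together. Mvk had log2 differences of -2.85 for b-gal+, -2.45 for b-gal- and -2.33 for EpCAM-positive cells, and Pmvk had log2 differences of -2.98 for b-gal+, -3.10 for b-gal- and -2.47 for EpCAM-positive cells (adjusted p of at most 1.13e-04). Mvd had the smallest gap of the mevalonate genes in b-gal+ cells, where it fell by 1.60 (adjusted p = 0.0109), and its call was lost under the authors' scaling and without b-gal+ replicate 1 or hepatocyte replicate 1. In EpCAM-positive cells its call (log2 -1.80, 0.00640) was also lost under the authors' scaling (-0.45, 0.326) and without hepatocyte replicate 1 (-1.52, 0.0557). Idi1, the isomerase of isopentenyl diphosphate, was scarce everywhere, with 14 and 5 reads for b-gal+, 6 and 10 for b-gal-, 46 and 13 for EpCAM-positive, and 131 and 52 for hepatocyte libraries. It was called lower in all 3 groups (adjusted p 0.00198 to 0.00683), in EpCAM-positive cells without a call under the authors' scaling, and 25.3% of its 50-base stretches occur in other genes.

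The branch point split into a gene that was lower and one that was higher. Fdps makes farnesyl diphosphate, the precursor of squalene. It had 3.44 and 3.42 CPM for b-gal+, 3.76 and 3.77 for b-gal-, 7.75 and 10.1 for EpCAM-positive, and 114 and 94.0 for hepatocyte libraries. Fdps was 26.5-fold lower in b-gal+, 24.4-fold in b-gal- and 11.2-fold in EpCAM-positive cells, with 26.2% of its stretches shared with other genes. Ggps1 lengthens farnesyl to geranylgeranyl diphosphate, which is attached to proteins and leaves the sterol branch. It had 8.99 and 10.4 CPM for b-gal+, 13.9 and 16.4 for b-gal-, 10.7 and 15.0 for EpCAM-positive, and 5.09 and 5.35 for hepatocyte libraries. Here the hepatocyte libraries were the lowest, and Ggps1 was higher by 0.83 in b-gal+ (adjusted p = 0.0260), 1.45 in b-gal- (0.00216) and 1.20 in EpCAM-positive cells (0.00538). The first of these calls was lost when any library of the b-gal gates or of hepatocytes was left out, while its direction stayed.

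Genes from squalene to lanosterol showed wide gaps in the F4/80high gates and a smaller one in EpCAM-positive cells. Sqle, squalene epoxidase, had 7.74 and 7.64 CPM for b-gal+, 13.7 and 11.7 for b-gal-, 42.3 and 71.3 for EpCAM-positive, and 286 and 271 for hepatocyte libraries. The F4/80high libraries were the lowest, EpCAM-positive cells lay between, and no groups overlapped. Sqle fell by 5.09 in b-gal+ (1.12e-05), by 4.40 in b-gal- (1.57e-05) and by 2.33 in EpCAM-positive cells (2.54e-04; limma adjusted p). Fdft1, squalene synthase, had 4.92 and 5.55 CPM for b-gal+, 8.72 and 11.4 for b-gal-, 19.3 and 37.5 for EpCAM-positive, and 186 and 155 for hepatocyte libraries. Fdft1 had log2 differences of -4.89 for b-gal+, -4.02 for b-gal- and -2.63 for EpCAM-positive cells, in the order of Sqle, with 26.5% of its stretches shared, mostly with Ctsb, whose exons overlap it on the other strand, so reads of the pair may not be told apart. Lss, lanosterol synthase, had 8.36 and 8.49 CPM for b-gal+, 4.53 and 3.52 for b-gal-, 16.5 and 29.0 for EpCAM-positive, and 141 and 144 for hepatocyte libraries. Lss had log2 differences of -4.00 for b-gal+, -4.99 for b-gal- and -2.67 for EpCAM-positive cells, and it was the one gene of the 3 with lower levels in b-gal- than in b-gal+ cells. The adjusted p of these differences of Fdft1 and Lss was at most 4.71e-04. The 3 genes together summed to 21.0 and 21.7 CPM for b-gal+, 27.0 and 26.7 for b-gal-, 78.1 and 138 for EpCAM-positive, and 613 and 570.0 for hepatocyte libraries.

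All 8 genes from lanosterol to cholesterol were lower in each of the 3 groups. Sc5d (chromosome 9, GRCm38), the lathosterol desaturase, had 10.5 and 11.5 CPM for b-gal+, 14.9 and 16.0 for b-gal-, 18.4 and 23.4 for EpCAM-positive, and 819.6 and 1124 for hepatocyte libraries. Sc5d showed the largest difference of the list, 83.7-fold lower in b-gal+ (adjusted p = 6.83e-06), 60.2-fold in b-gal- (8.05e-06) and 45.2-fold in EpCAM-positive cells (1.00e-05). Cyp51, the lanosterol demethylase, had 18.6 and 17.6 CPM for b-gal+, 16.4 and 14.7 for b-gal-, 54.0 and 52.2 for EpCAM-positive, and 476 and 348 for hepatocyte libraries. Tm7sf2, a sterol reductase, had 9.08 and 15.6 CPM for b-gal+, 7.80 and 12.8 for b-gal-, 7.57 and 14.6 for EpCAM-positive, and 238 and 299.6 for hepatocyte libraries, with 9.87% of its stretches shared with its neighbour Vps51. In Cyp51 EpCAM-positive cells lay above the F4/80high gates, while in Tm7sf2 the 3 non-hepatocyte groups overlapped. Cyp51 had log2 differences of -4.46 for b-gal+, -4.67 for b-gal- and -2.93 for EpCAM-positive cells, and Tm7sf2 had log2 differences of -4.43 for b-gal+, -4.67 for b-gal- and -4.60 for EpCAM-positive cells (adjusted p of at most 1.15e-04).

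The demethylation steps were carried by Msmo1, Nsdhl and Hsd17b7. Msmo1 had 22.0 and 24.4 CPM for b-gal+, 26.7 and 27.6 for b-gal-, 35.8 and 58.2 for EpCAM-positive, and 422 and 345 for hepatocyte libraries. Nsdhl, the sterol dehydrogenase, had 13.0 and 14.6 CPM for b-gal+, 11.5 and 12.4 for b-gal-, 23.1 and 24.6 for EpCAM-positive, and 212 and 142 for hepatocyte libraries. Both were lowest in the F4/80high gates and stood apart in hepatocytes. Msmo1 had log2 differences of -4.01 for b-gal+, -3.79 for b-gal- and -3.05 for EpCAM-positive cells, and Nsdhl had log2 differences of -3.60 for b-gal+, -3.80 for b-gal- and -2.84 for EpCAM-positive cells. Hsd17b7, the ketosteroid reductase that closes these steps, had 5.01 and 4.63 CPM for b-gal+, 15.2 and 16.0 for b-gal-, 15.1 and 19.6 for EpCAM-positive, and 163 and 157 for hepatocyte libraries. Its b-gal+ libraries were below all others. Hsd17b7 had log2 differences of -4.92 for b-gal+, -3.32 for b-gal- and -3.18 for EpCAM-positive cells. Ebp, the sterol isomerase, had 35.6 and 30.9 CPM for b-gal+, 26.5 and 23.0 for b-gal-, 28.1 and 23.0 for EpCAM-positive, and 509 and 581 for hepatocyte libraries. Dhcr7, which makes cholesterol from its last precursor, had 29.4 and 29.0 CPM for b-gal+, 15.6 and 17.4 for b-gal-, 24.4 and 29.3 for EpCAM-positive, and 317 and 284 for hepatocyte libraries. Ebp and Dhcr7 were as high in b-gal+ cells as in EpCAM-positive ones or higher, though neither difference between those groups was called (adjusted p = 0.133 and 0.578). Ebp had log2 differences of -4.01 for b-gal+, -4.43 for b-gal- and -4.39 for EpCAM-positive cells, and Dhcr7 had log2 differences of -3.34 for b-gal+, -4.14 for b-gal- and -3.46 for EpCAM-positive cells. Across these 5 genes the adjusted p against hepatocytes was at most 7.11e-05.

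**Figure D2:**
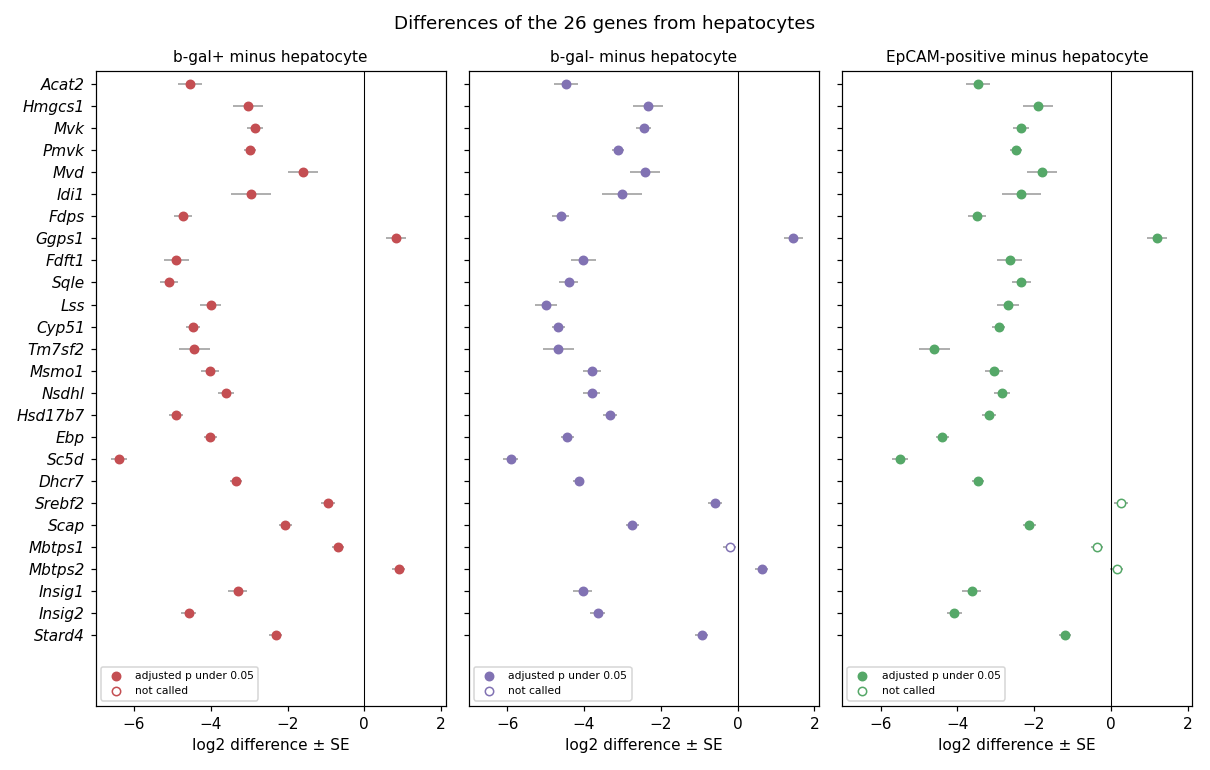
Log2 differences (± SE, limma) of the 26 genes from hepatocytes in b-gal+, b-gal- and EpCAM-positive cells, 2 libraries a group; filled points have adjusted p under 0.05. Synthesis enzymes lie left of 0 apart from Ggps1, with Sc5d farthest, and Srebf2, Mbtps1 and Mbtps2 lie near 0.

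The gene of the regulator itself was close to level across groups beside the enzyme genes, a contrast between genes that was not tested. Srebf2, which encodes SREBP2, had 97.6 and 80.0 CPM for b-gal+, 118 and 108 for b-gal-, 233 and 180.4 for EpCAM-positive, and 158 and 183 for hepatocyte libraries. EpCAM-positive and hepatocyte libraries overlapped, and b-gal+ libraries were the lowest. Srebf2 was called lower in b-gal+ cells (log2 -0.94, adjusted p = 0.00431) and also in b-gal- cells (-0.59, 0.0283), and did not pass in EpCAM-positive cells (0.27, 0.247). Under the authors' scaling the first 2 differences turned to 0.10 and 0.61, so the direction for Srebf2 rests on the scaling. The b-gal- call of Srebf2 was also lost without either b-gal- or either hepatocyte library. Scap, the sterol sensor that escorts SREBP2, was the most hepatocyte-rich of the 4, with 77.9 and 67.9 CPM for b-gal+, 43.8 and 46.3 for b-gal-, 68.8 and 69.7 for EpCAM-positive, and 265 and 351 for hepatocyte libraries. Scap fell by 2.06 in b-gal+, by 2.75 in b-gal- and by 2.13 in EpCAM-positive cells, with adjusted p of 2.18e-05 to 7.65e-05.

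The genes of the Golgi proteases differed by less than 1 log2 unit under TMM scaling. Mbtps1 had 94.6 and 84.4 CPM for b-gal+, 128 and 119.8 for b-gal-, 99.4 and 126 for EpCAM-positive, and 141 and 146 for hepatocyte libraries. It passed in b-gal+ cells alone (-0.68, adjusted p = 0.00904), where the difference turned to 0.36 with the authors' scaling and did not pass once b-gal+ replicate 2 was left out, and missed the threshold in b-gal- (-0.21, 0.286) and EpCAM-positive cells (-0.35, 0.0927). The authors' scaling moves all genes of a library together, and it turned the larger negative differences of Stard4 in these 2 groups positive. The direction of Mbtps1 in b-gal- and EpCAM-positive cells thus also rests on the scaling. Mbtps2 was higher outside hepatocytes, with 43.3 and 42.7 CPM for b-gal+, 37.0 and 34.3 for b-gal-, 29.4 and 22.2 for EpCAM-positive, and 22.4 and 23.6 for hepatocyte libraries. It was up by 0.89 in b-gal+ cells (adjusted p = 0.00392) and by 0.62 in b-gal- cells (0.0173), and at 0.15 it was not called in EpCAM-positive cells (0.468). The b-gal- call was lost without either b-gal- library or hepatocyte replicate 1. Of its 50-base stretches, 28.9% are shared, mostly with Yy2, which lies inside it on the same strand.

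Both inhibitors were far higher in hepatocytes. Insig1, a target of SREBP2 that closes a feedback loop, had 94.6 and 65.5 CPM for b-gal+, 44.8 and 49.4 for b-gal-, 60.6 and 64.8 for EpCAM-positive, and 947 and 639.8 for hepatocyte libraries. Insig2, its relative, had 26.7 and 28.0 CPM for b-gal+, 50.0 and 55.4 for b-gal-, 34.9 and 43.3 for EpCAM-positive, and 572 and 772 for hepatocyte libraries. Every hepatocyte library stood far above all libraries of the other groups. Insig1 fell by 3.30, 4.03 and 3.62, and Insig2 fell by 4.58, 3.64 and 4.08, in b-gal+, b-gal- and EpCAM-positive cells, with adjusted p of at most 4.64e-05. Stard4, a carrier that moves cholesterol between membranes, had 28.8 and 23.4 CPM for b-gal+, 70.1 and 66.2 for b-gal-, 54.3 and 59.7 for EpCAM-positive, and 144 and 119 for hepatocyte libraries. It fell by 2.31 in b-gal+ (adjusted p = 3.95e-05), by 0.94 in b-gal- (0.00222) and by 1.20 in EpCAM-positive cells (8.03e-04), and the b-gal- and EpCAM-positive differences turned to 0.26 and 0.17 with the authors' scaling.

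**Figure D3:**
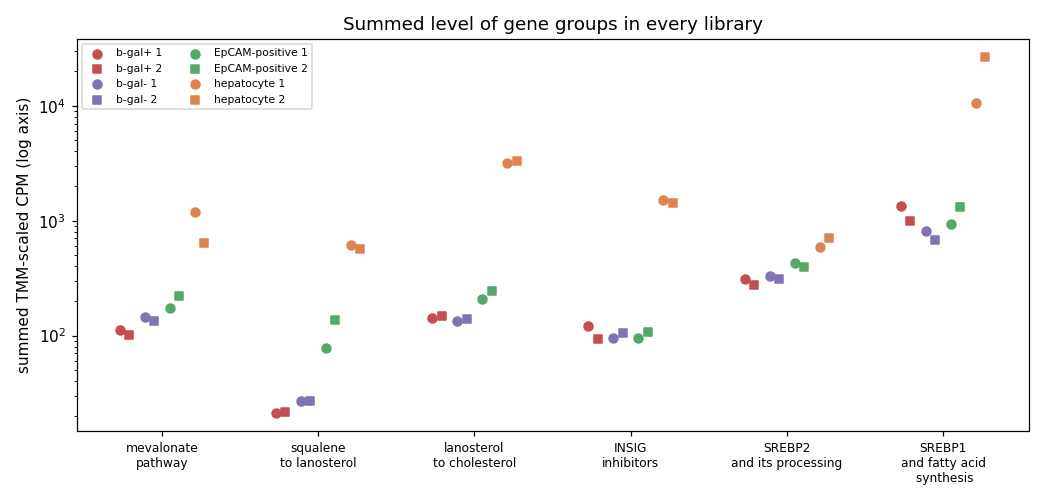
Summed TMM-scaled CPM (log axis) of 5 roles within the list and of a separate list of 13 genes of SREBP1 and fatty acid synthesis, in each of the 8 libraries; circles are replicate 1 and squares replicate 2. The gap between hepatocytes and the other groups is wide for the enzymes and the INSIG genes and narrow for SREBP2 and its processing.

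By step, the list kept a different share of its hepatocyte level outside hepatocytes. The 8 genes from lanosterol to cholesterol summed to 4.19% to 7.61% of the hepatocyte mean over the 6 other libraries, and the INSIG genes to 6.38% to 8.28%. The genes from squalene to lanosterol kept 3.56% and 3.67% in b-gal+, 4.57% and 4.52% in b-gal-, and 13.2% and 23.3% in EpCAM-positive libraries. The 6 mevalonate genes kept 11.1% to 23.9%, and SREBP2 with its processing genes 42.6% to 66.8%. These are shares of summed CPM, which the abundant genes lead, and genes within a step differed. Among the mevalonate genes Acat2 kept 3.40% to 10.9% and Mvd 11.8% to 33.8%. Among the processing genes Scap kept 14.2% to 25.3% and Mbtps2 96.9% to 188%. The hepatocyte markers stood at 0.0810% to 2.24% of their hepatocyte sum in the same libraries, and each of the 26 genes was above that percentage in each library, Sc5d being the lowest with 1.08% to 2.41%. In EpCAM-positive replicate 2 the margin was narrow, 2.41% for Sc5d beside 2.24% for the markers.

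Per kilobase of exon, a rough scale for comparing different genes, the order of the list also changed between groups. The length takes in all annotated exons of a gene, and genes also differ in stretches shared with others, 25.3% for Idi1. Insig1 ranked first of 26 in b-gal+ cells, at 30.6 and 21.2 CPM per kb, and in hepatocytes, at 306 and 207. Hmgcs1 ranked first in b-gal- cells (22.3 and 21.0 CPM per kb) and in EpCAM-positive cells (24.8 and 34.8), where its replicates reached the range of Srebf2 (32.4 and 25.1). Srebf2 ranked 4, 2 and 2 in b-gal+, b-gal- and EpCAM-positive cells and 20 in hepatocytes. Sc5d ranked 18, 17 and 19 in those 3 groups and 3 in hepatocytes. Idi1 was the lowest gene of the list in each group but hepatocytes, where Ggps1 was lower still at 1.08 and 1.13 CPM per kb, beside 2.76 and 1.18 for Idi1.

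Between the F4/80high gates the list was close to level as a whole, with 3 genes higher and 3 lower in b-gal+ than in b-gal- cells, while 10.3% and 13.0% of all genes tested were called higher and lower. The median difference of the 26 genes was -0.10, beside -0.02 over all genes. The 6 called genes are 23.1% of the list, beside 23.3% of all genes called in either direction. Libraries of the gates did not overlap for 23 of 26 genes (88.5%), and for 69.0% of all genes. Hsd17b7 (chromosome 1, GRCm38) fell by 1.60 (SE 0.18, limma adjusted p = 0.00177), with 4.82 ± 0.271 CPM in b-gal+ cells and 15.6 ± 0.532 CPM in b-gal- cells (SD, n = 2 each). Stard4 fell by 1.38 (SE 0.16, 0.00208), with 26.1 ± 3.84 CPM in b-gal+ cells and 68.2 ± 2.78 CPM in b-gal- cells. Insig2 fell by 0.93 (SE 0.19, 0.0142), with 27.4 ± 0.854 CPM in b-gal+ cells and 52.7 ± 3.81 CPM in b-gal- cells. These 3 genes belong to different steps, the late sterol demethylations, sterol transport and the brake on SREBP2.

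The 3 higher genes were Lss, Dhcr7 and Scap. Lss was 1.98-fold higher (adjusted p = 0.0462), with 8.43 ± 0.0869 CPM in b-gal+ cells and 4.03 ± 0.713 CPM in b-gal- cells (SD, n = 2 each). Dhcr7 was 1.75-fold higher (0.0110), with 29.2 ± 0.276 CPM in b-gal+ cells and 16.5 ± 1.26 CPM in b-gal- cells. Scap was 1.61-fold higher (0.0288), with 72.9 ± 7.03 CPM in b-gal+ cells and 45.1 ± 1.78 CPM in b-gal- cells. Of the 6 calls, those of Hsd17b7 and Stard4 passed under each alternative run. Lss and Scap lost theirs under the authors' scaling, and Lss also with a pseudocount of 2 CPM, with no low-count filter and without either hepatocyte library. Lss, Dhcr7 and Scap lost theirs when any library of the gates was left out, and Insig2 did so for each of them except b-gal- replicate 1. The count of called genes was 2 without either b-gal+ library or the second b-gal- library, and 3 without the first b-gal- library. With the authors' scaling 1 gene was higher and 4 were lower, and the share of all calls that were higher was 32.5%, against 44.4% under TMM.

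**Figure D4:**
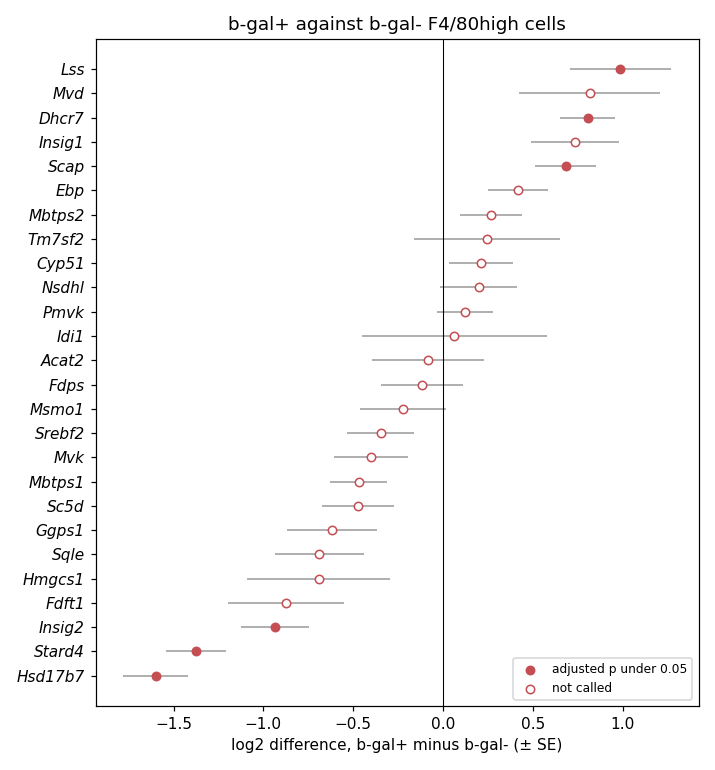
Log2 differences (± SE, limma) of the 26 genes between b-gal+ and b-gal- F4/80high cells, sorted by size, 2 libraries a gate; filled points have adjusted p under 0.05. Hsd17b7, Stard4 and Insig2 are the called genes on the lower side, and Lss, Dhcr7 and Scap those on the higher side.

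Several genes had apart libraries without a call. Insig1 had 94.6 and 65.5 CPM in b-gal+ cells, against 44.8 and 49.4 CPM in b-gal- cells (log2 0.74, adjusted p = 0.0743). Sqle had 7.74 and 7.64 CPM in b-gal+ cells, against 13.7 and 11.7 CPM in b-gal- cells (-0.69, 0.0934), and Fdft1 4.92 and 5.55 in b-gal+, against 8.72 and 11.4 CPM in b-gal- cells (-0.87, 0.101). The SE of these differences was 0.24 to 0.32, and none of the 3 passed limma's test. DESeq2 called Insig1, and limma called Sqle and Fdft1 without either or both EpCAM-positive libraries, when 9 of 26 genes were called, 3 higher and 6 lower. Without both EpCAM-positive libraries that is 34.6% of the list, and 30.5% of all genes were called. The Insig1 to Insig2 ratio per kb was 3.97 and 2.63 for b-gal+, 1.01 and 1.00 for b-gal-, 1.95 and 1.68 for EpCAM-positive, and 1.86 and 0.931 for hepatocyte libraries. The gates also differ in macrophage and endothelial markers, as given above, and the part of these markers in the 6 calls was not tested.

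Part of the list was lower in the F4/80high gates than in EpCAM-positive cells. Positive differences were found for 7 of the 26 genes in the b-gal+ gate and for 5 in the b-gal- gate. In the b-gal+ gate these were Mvd, Tm7sf2, Ebp, Dhcr7, Scap, Mbtps2 and Insig1. Of the 26 genes, 13 were lower and 1 higher in b-gal+ than in EpCAM-positive cells, while 17.9% and 14.7% of all genes were. In b-gal- cells 9 were lower and 0 higher than in EpCAM-positive cells, beside 6.57% and 5.63% of all genes. The 9 calls come from limma, where 13 of the 26 genes had an unadjusted p under 0.05, as had 4312 of all 14404 genes. For the same comparison edgeR called 9 of the 26 genes and DESeq2 12, all lower, beside 9.32% and 19.8% of all genes in either direction. The median difference was -0.69 for b-gal+ and -0.61 for b-gal- cells, beside -0.03 and 0.07 over all genes. Libraries did not overlap for 21 (80.8%) and 19 (73.1%) of the 26 genes, and for 66.0% and 55.7% of all genes, of which 32.5% and 12.2% were called.

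By median, the widest differences lay between squalene and lanosterol (-2.26 for b-gal+ and -2.07 for b-gal-), where all 3 genes were called lower in both gates. Sqle fell by 2.76 in b-gal+ cells (adjusted p = 0.00129) and by 2.07 in b-gal- cells (0.0172) against EpCAM-positive cells. Fdft1 fell by 2.26 (0.00353) and by 1.39 (0.0393), and Lss fell by 1.33 (0.0129) and 2.32 (0.0172), in b-gal+ and b-gal- cells. Cyp51 fell by 1.53 (0.00208) in the b-gal+ gate and by 1.74 (0.0169) in the b-gal- gate, and Srebf2 fell by 1.21 (0.00460) in b-gal+ cells and fell by 0.86 (0.0338) in b-gal- cells. Hsd17b7 and Stard4 were called lower in b-gal+ (-1.74, 0.00178, and -1.12, 0.00392) and not in b-gal- cells (-0.14, 0.687, and 0.26, 0.357). Mbtps2 was the gene called higher in b-gal+ cells (0.74, 0.0187).

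These comparisons lean on single libraries. The EpCAM-positive replicates differed, with 19 of 26 genes higher in replicate 2. In replicate 2 all 10 bile duct markers and 9 of 10 hepatocyte markers were higher, and in replicate 1 all 10 macrophage, all 8 lymphocyte and all 10 proliferation markers were higher. Of the 8 lymphocyte markers, 5 were called lower in b-gal+ than in EpCAM-positive cells, and 1 was so for b-gal-. The part of these markers in the differences was not tested. For b-gal+ against EpCAM-positive cells, fewer of the 26 genes were called without either b-gal+ library or EpCAM-positive replicate 2. Fewer of all genes were called then too. The median of the 26 genes was -0.76 without b-gal+ replicate 1, -0.70 without b-gal+ replicate 2 and -0.67 without EpCAM-positive replicate 2. For b-gal- against EpCAM-positive cells, all calls of the list were lost when either b-gal- library was left out. Nearly all calls among all genes were lost then too. The median of the 26 genes was -0.53 without b-gal- replicate 1 and -0.55 without b-gal- replicate 2. Fewer of the 26 genes and of all genes were called without either b-gal+ library, EpCAM-positive replicate 2 or either hepatocyte library. With the authors' scaling the share of all calls that were higher was 25.6% for b-gal+ and 25.5% for b-gal- cells, against 45.1% and 46.2% under TMM.

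Other genes of synthesis and SREBP2 control, from lists outside the 26, were mostly lower outside hepatocytes too. Of 8 further synthesis genes and SREBP2 targets, 7 were lower and 1 higher in each of the 3 groups, and Lbr was the higher one. Of all genes tested, 29.6%, 29.7% and 29.1% were lower and 29.5%, 33.5% and 33.5% higher in b-gal+, b-gal- and EpCAM-positive cells. Of 9 genes for sterol-regulated protein degradation, 6, 6 and 7 were lower and 1 was higher in b-gal+, b-gal- and EpCAM-positive cells. The higher gene was Rnf145, a ubiquitin ligase, with log2 differences of 1.77 for b-gal+, 1.89 for b-gal- and 1.07 for EpCAM-positive cells. Lbr and, for EpCAM-positive cells, Rnf145 were named after their values were seen.

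In 3 pairs of genes with related products, the partners ran in opposite directions. Lbr, the lamin B receptor, is a sterol reductase for the same step as Tm7sf2. It had 81.1 and 77.2 CPM for b-gal+, 114 and 121 for b-gal-, 122 and 75.1 for EpCAM-positive, and 28.1 and 28.0 for hepatocyte libraries. Lbr was 2.78-fold higher in b-gal+, 4.13-fold in b-gal- and 3.36-fold in EpCAM-positive cells, opposite to Tm7sf2, and per kb the ratio of Lbr to Tm7sf2 was 4.56 to 14.9 outside hepatocytes and 0.0865 to 0.109 in hepatocytes. Soat1 and Soat2 both esterify cholesterol for storage. Soat1 had 524 and 506 CPM for b-gal+, 153 and 94.1 for b-gal-, 109 and 38.7 for EpCAM-positive, and 8.34 and 8.06 for hepatocyte libraries, whereas Soat2 had 2.37 and 1.89 CPM for b-gal+, 3.19 and 2.94 for b-gal-, 4.65 and 5.65 for EpCAM-positive, and 84.1 and 93.6 for hepatocyte libraries. The ratio of Soat1 to Soat2 per kb was 1.55 to 60.5 outside hepatocytes and 0.0195 to 0.0224 in hepatocytes. The ratio of Ggps1 to Fdps was 1.23 to 3.88 outside hepatocytes and 0.0397 to 0.0507 in hepatocytes. In these 3 pairs no library outside hepatocytes came near the hepatocyte ratio, while Insig1 and Insig2 were both higher in hepatocytes. Ratios within a library do not depend on the scaling.

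**Figure D5:**
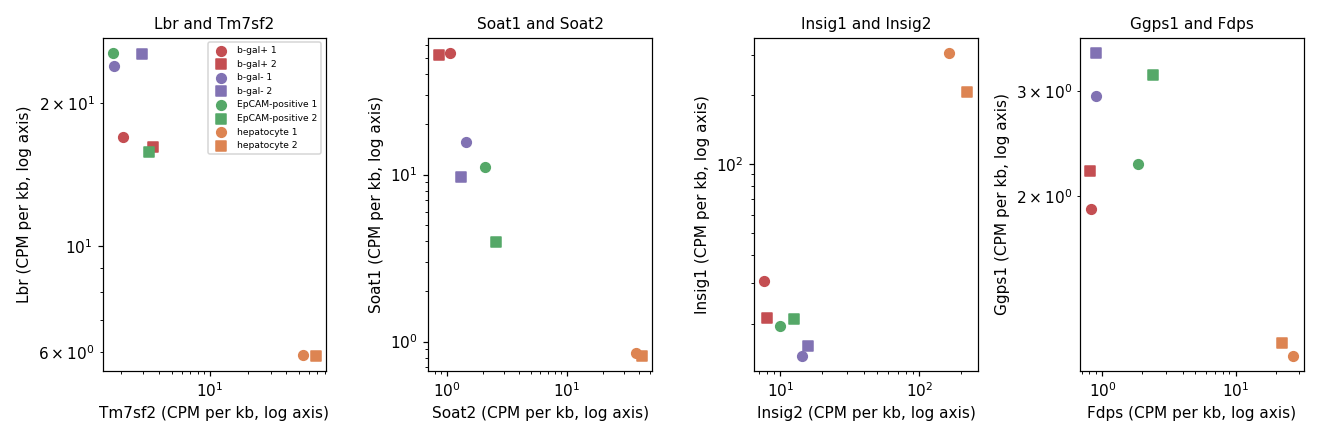
CPM per kb of exon of paired genes against each other (both axes log), 1 point a library; circles are replicate 1 and squares replicate 2. Hepatocyte points lie at the lower right for Lbr and Tm7sf2, Soat1 and Soat2, and Ggps1 and Fdps, and at the upper right for Insig1 and Insig2.

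Between the gates, several genes that handle cholesterol from outside the cell were higher in b-gal+ cells. Of 12 genes for uptake, storage and lysosomal release, 7 were higher and 0 lower in b-gal+ than in b-gal- cells by limma, beside 10.3% and 13.0% of all genes, and their median difference was 0.79. Gramd1a and Gramd1c, carriers of cholesterol from the cell membrane, had negative differences with an unadjusted p under 0.05 that did not pass adjustment (0.134 and 0.106). Nceh1, a cholesteryl ester hydrolase, was 4.33-fold higher (adjusted p = 9.07e-04), with 221 ± 2.32 CPM in b-gal+ cells and 51.0 ± 9.89 CPM in b-gal- cells (SD, n = 2 each). Soat1 was 4.28-fold higher (0.0187), Lipa, the lysosomal acid lipase, 3.54-fold (0.0165), and Npc2, a lysosomal cholesterol carrier, 3.18-fold (0.0153). Among synthesis genes outside the 26, Acss2, which makes acetyl-CoA from acetate, was 4.16-fold higher (0.0129). Nceh1 passed under each alternative, while Soat1, Lipa, Npc2 and Acss2 lost their calls without either b-gal+ library or the second b-gal- library, and Soat1 also without either hepatocyte library. Macrophage markers were higher in the same gate, 9 of 10 by call, and their part in these differences was not tested.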

How the data were processed

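RNA of 8 libraries in 4 groups was analysed. HTSeq and the build GRCm38.p4 (mm10) appear in the submitters' processing notes; the aligner, the annotation, strandedness and versions are not given in the sources used here. Per the values, hepatocyte replicate 1 was deposited as read counts per symbol, and the authors deposited the other 7 libraries in another unit, counts multiplied by 1 factor a library (1.08 to 1.54) and written with decimal commas. Dividing by that factor gave whole reads for 100% of values within 0.01 reads. Rows with a date in place of a symbol (14 a library, 0.0514% to 0.182% of reads) were left out.

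Reads were scaled with TMM (edgeR 4.0.16) and tested on log2(CPM + 0.5) by limma 3.58.1 (trend option), 8 libraries in 1 fit, two-sided, with Benjamini-Hochberg adjustment over 14404 genes kept by edgeR's default low-count filter. A fold is on this log2 scale and understates low genes. Replicates are pools, and nothing in the labels says how pools were prepared apart, so p-values measure the spread between libraries of a group. In the main fit that spread is pooled over the 4 groups and drawn toward a trend over genes. The script was tested on simulated data. Alternatives were the quasi-likelihood test of edgeR, DESeq2 1.42.0, its size factors, the authors' scaling, pseudocounts of 0.1 and 2 CPM, other filters, a replicate block, only the groups compared, each library left out and, chosen after seeing the data, no EpCAM-positive libraries. Positions, exon lengths and 50-base stretches shared between genes come from GENCODE on GRCm38, and promoters from RefSeq.

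The 26 genes and all lists were chosen with earlier results of these data known. All 26 are described; of the other lists, up to 4 called genes per list and comparison may be named, largest difference first, if they average 5 CPM or more over all libraries, and exceptions are marked. Some other genes of the pathway are not reported here.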

Additional observations from a re-analysis of the deposited data

How the results depend on the processing

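Among the genes of the list called in the main test, some log2 differences against hepatocytes changed sign under the authors' scaling. These were Srebf2 (0.10) and Mbtps1 (0.36) in b-gal+ cells, and Srebf2 (0.61, limma adjusted p = 0.0281) and Stard4 (0.26) in b-gal- cells. In EpCAM-positive cells it was Stard4 (0.17). The scaling moves all genes of a library together. Mbtps1, not called in b-gal- and EpCAM-positive cells, had smaller negative differences there than Stard4. Its direction in those groups thus also rests on the scaling. With limma fitted on only the 2 groups compared, 6 of 26 genes and 2167 genes in all were called for b-gal+ against EpCAM-positive cells, and 0 and 0 for b-gal- against EpCAM-positive cells, where 11 and 3318 had an unadjusted p under 0.05; such a fit has fewer libraries for its spread. DESeq2 called 2855 genes in the last comparison, against 1757 in the main test. Leaving out 1 library at a time gave 2 to 9 called genes of the 26 and 1310 to 4380 of all genes for b-gal+ against b-gal-, 24 to 26 and 6857 to 9175 for b-gal+ against hepatocytes, 23 to 25 and 7340 to 9880 for b-gal- against hepatocytes, 22 to 24 and 7112 to 8917 for EpCAM-positive against hepatocytes, 6 to 13 and 1940 to 5476 for b-gal+ against EpCAM-positive, and 0 to 9 and 0 to 2807 for b-gal- against EpCAM-positive cells. Where that left 1 library in a group, it was assumed to vary like the others. The replicate block gave 6, 26, 25, 23, 15 and 9 called genes of the 26 in the same 6 comparisons. Of all genes, the block called 28.2%, 62.9%, 67.1%, 66.6%, 37.9% and 15.6% in that order. The main test called 23.3%, 59.2%, 63.2%, 62.5%, 32.5% and 12.2% of all genes. The labels number the libraries 1 and 2 in each group without saying what a number shares, and 2 numbers are too few to take them as pairs from the data. The deviations of same-numbered libraries correlated at 0.177 to 0.494 over genes in the 6 pairs of groups, a hint that a number may be shared. Without EpCAM-positive libraries 9 of the 26 genes and 4394 of all genes were called between the gates. Depth limits Idi1, with 5 reads in its lowest library.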

Other observations

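The hepatocyte replicates differed in lipid synthesis genes and in markers. All 6 mevalonate genes were higher in replicate 1, with a sum of 1198 CPM, against 637 CPM in replicate 2, while the 8 genes from lanosterol to cholesterol summed to 3156 and 3280 CPM. All 13 genes of SREBP1 and fatty acid synthesis were lower in replicate 1, with a sum of 10630 CPM, against 26694 CPM in replicate 2. Scd1, the stearoyl-CoA desaturase, had 5002 CPM in replicate 1 and 16951 CPM in replicate 2, and Fasn, fatty acid synthase, had 1300 and 2923 CPM. Of the 10 macrophage markers all were higher in replicate 1 (348 and 246 CPM in sum), and of the 10 endothelial markers all were higher in replicate 2 (453 and 1106 CPM), while hepatocyte markers summed to 196997 and 280730 CPM. These are 2 single pools, so no test applies, and the part of the markers in the lipid genes was not tested.

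In the fatty acid list, the gates differed in opposite directions by gene. Scd1 was 6.09-fold higher in b-gal+ than in b-gal- cells (limma adjusted p = 0.0123), with 146 ± 24.8 CPM in b-gal+ cells and 23.5 ± 3.30 CPM in b-gal- cells (SD, n = 2 each). Fads2, a desaturase of polyunsaturated fatty acids, fell by 2.56 (0.00538), with 3.85 ± 1.07 CPM in b-gal+ cells and 24.8 ± 0.307 CPM in b-gal- cells, and Acacb, an acetyl-CoA carboxylase, fell by 1.92 (0.0110). The other 10 genes of this list were not called between the gates. Of its 13 genes, 1 was thus higher and 2 lower, beside 10.3% and 13.0% of all genes tested. Of 8 genes that turn cholesterol into bile acids and oxysterols, 1 was higher and 1 lower in b-gal+ than in b-gal- cells, with a median of -0.17. Of all genes tested, 23.3% were called in either direction. The higher gene of the 8 was Cyp27a1 (2.70-fold, 0.0235), and the lower was Ch25h (log2 -1.50, 0.0420). Both make oxysterols, and Ch25h was scarce, with 0.760 and 0.402 CPM in b-gal+ and 2.88 and 2.20 CPM in b-gal- cells. Cyp7b1, which acts on oxysterols, had 1.25 and 0.885 CPM in b-gal+ and 6.49 and 8.66 CPM in b-gal- cells and was not called (0.0830). Ch25h and Cyp7b1 were named after their values were seen. Rabggta, a subunit of the geranylgeranyl transferase for Rab proteins, was 2.21-fold higher in b-gal+ cells (0.00926). Without single libraries of the gates, Scd1, Acacb, Cyp27a1 and Rabggta lost their calls, and Fads2 kept its call in each.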
